A study of Mus musculus with 14 samples.

Results

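The 9 genes described here encode the kinase CDK1 and the proteins that hold it back or switch it on when a mouse oocyte leaves its long arrest: Cdk1, the B-type cyclins Ccnb1, Ccnb2 and Ccnb3, the phosphatase gene Cdc25b, the kinase genes Plk1, Wee1 and Mastl, and Mos. They were chosen by name for their known roles, with earlier results of these data known. All 9 were found, among 35389 gene identifiers in one table of expression values and 35341 gene symbols in another. Each of the 9 passed the filter on low values in both tables.

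Polyadenylated RNA was sequenced in 14 libraries of mouse oocytes, in 7 groups of 2. In the first table (8 libraries), oocytes with a non-surrounded nucleolus (NSN) or a surrounded nucleolus (SN) overexpressed Rnaseh1, which encodes the nuclease that cuts the RNA strand of RNA:DNA hybrids, or the fluorescent protein mCherry as the control. In the second table (6 libraries, the rescue set), oocytes overexpressed mCherry, Rnaseh1, or Rnaseh1 and Supt6 together, Supt6 encoding a histone chaperone that accompanies RNA polymerase II. Every group overexpressed a gene, so untreated oocytes are not among them; the labels give no mouse strain, age or delivery method, and those of the rescue set give no nucleolar stage. Values are in TPM, the share of a gene's transcripts among all transcripts of a library, corrected for transcript length, so levels of different genes can be set side by side. The labels do not tell whether a group's replicates are separate mice, separate pools of oocytes or repeats of 1 pool, and p-values therefore measure the spread between libraries, which may be technical.

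A fully grown oocyte waits in prophase of the first meiotic division with CDK1 and cyclin B present but inactive, because WEE1-type kinases phosphorylate CDK1. Resumption begins when CDC25B removes that phosphate; PLK1 strengthens the switch, and MASTL (Greatwall) restrains the phosphatase PP2A, which would otherwise undo the work of CDK1. MOS starts a MAP kinase cascade that later keeps the egg arrested at metaphase. NSN oocytes still transcribe, SN oocytes have largely stopped, and resumption runs on stored mRNA, some of it, including that of Ccnb1 and Mos, translated when its poly(A) tail is lengthened in the cytoplasm. Since polyadenylated RNA was sequenced, a lower amount of an mRNA and a shorter tail cannot be told apart here.

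Promoter sequences are shown for 3 genes that fell in the rescue set and that carry elements typical of cell cycle genes. Cdc25b also fell and carries such elements but is not shown. Whether these elements have a part in the changes was not tested. RefSeq promoters on GRCm38.p6, reaching from 250 bases before the transcription start to 50 after it, were matched for 7 of the 9 genes; Mos and Wee1 were not matched. Capitals mark the cell cycle genes homology region (CHR, searched as TTTGAA or TTCGAA) and CCAAT, each on both strands (CCAAT reads ATTGG on the other strand; the motifs do not overlap each other here). The windows lie at chr7:122159185-122159484 on the plus strand (Plk1), chr10:69352863-69353162 on the minus strand (Cdk1) and chr9:70421505-70421804 on the minus strand (Ccnb2).
Plk1: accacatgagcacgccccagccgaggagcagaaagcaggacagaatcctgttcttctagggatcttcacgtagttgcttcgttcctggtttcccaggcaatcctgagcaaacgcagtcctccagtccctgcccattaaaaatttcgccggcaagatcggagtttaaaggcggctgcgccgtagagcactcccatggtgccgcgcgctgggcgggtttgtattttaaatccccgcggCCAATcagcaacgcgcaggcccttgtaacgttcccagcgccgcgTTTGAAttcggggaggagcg
Cdk1: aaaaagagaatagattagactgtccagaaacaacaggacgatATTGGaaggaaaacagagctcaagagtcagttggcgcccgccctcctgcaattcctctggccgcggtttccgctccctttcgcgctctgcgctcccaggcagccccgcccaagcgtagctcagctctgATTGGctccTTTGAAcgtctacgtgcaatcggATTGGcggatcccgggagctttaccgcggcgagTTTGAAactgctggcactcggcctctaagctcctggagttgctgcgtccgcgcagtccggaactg
Ccnb2: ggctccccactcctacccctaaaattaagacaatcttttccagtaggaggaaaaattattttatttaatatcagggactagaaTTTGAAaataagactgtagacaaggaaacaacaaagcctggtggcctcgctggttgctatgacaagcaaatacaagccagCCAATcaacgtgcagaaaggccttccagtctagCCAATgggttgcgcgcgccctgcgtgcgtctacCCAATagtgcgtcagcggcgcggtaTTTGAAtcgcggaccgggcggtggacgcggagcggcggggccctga

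A CHR form was found in 4 of the 7 promoters (Cdk1, Ccnb2, Plk1 and Cdc25b), against 19.2% of 32851 RefSeq promoters of that length. CCAAT was found in 6, against 37.4%, and both kinds of element in 4, against 7.5%. Counting from the start site, with -1 for the base before it, Plk1 had TTTGAA at 31 and CCAAT at -14, and Cdc25b had TTCGAA at 8 and the reverse of CCAAT at -28. The Ccnb1 promoter held CCAAT at -99 and -67 and no CHR form, and that of Mastl held CCAAT at -107. In the Ccnb3 window these letters were not found.

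The stored mRNA of Ccnb1 is a textbook target of the polyadenylation factor CPEB1, which binds UUUUAU or UUUUAAU near the 3′ end. In the GENCODE M21 transcripts, TTTTAT or TTTTAAT lay within the last 150 bases of the 3′ untranslated region for 2 of the 9 genes, against 27.9% of 20830 coding genes, read on the sense strand only. Mos, whose region is 126 bases long, had 0 of these elements. In Ccnb1 the element ends 137 bases before the end of transcript Ccnb1-201 and 55 bases before that of Ccnb1-202. The element, in capitals, and the bases after it are shown for Ccnb1 (chr13:100778764-100778793, minus strand) and Ccnb3 (chrX:6979690-6979719, minus strand), on GRCm38.
Ccnb1: TTTTAATttatacatctgatatcaagttga
Ccnb3: TTTTATgaaagaagagaaattgttttgtta

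Rnaseh1 itself checked the labels: it was between 229 and 2270 TPM in the 8 libraries labelled with it and between 81.0 and 137 TPM in the 6 mCherry libraries, and Supt6 was 28.2 and 21.0 TPM where it was overexpressed and at most 7.27 TPM elsewhere. All 10 oocyte markers were at 1 TPM or more in every library. Markers of granulosa and cumulus cells summed to between 23.8 and 54.9 TPM, most of it Cyp19a1, those of stroma and theca to between 0.44 and 3.55 TPM, and those of blood to at most 0.53 TPM. TPM keeps no sequencing depth, so the reads behind a value are not known. Between 10036 and 12230 genes reached 1 TPM per library.

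In the rescue set, 6 of the 9 genes were lower with Rnaseh1 than with mCherry past an adjusted p of 0.05 (limma on log2(TPM + 1), Benjamini-Hochberg over 12859 genes), and 0 were higher. Mos and Plk1 fell most, by 19.9-fold and 17.9-fold, Cdk1 fell 6.41-fold, Cdc25b 2.85-fold, Ccnb1 2.04-fold and Ccnb2 1.54-fold. Ccnb3, Wee1 and Mastl did not pass. This is to be read against a broad shift: 46.2% of all genes tested fell and 20.3% rose in the same comparison, and the median log2 fold change was -1.03 for the 9 genes and -0.52 for all genes. Mos and Plk1 lay at the edge of that distribution, with 0.762% and 0.972% of all genes further down, whereas 47.0% of genes lay below Ccnb2.

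With Rnaseh1 and Supt6 together, 1 of the 9 genes rose (Ccnb2) and 3 fell (Plk1, Cdc25b and Mos) against mCherry, where 5.71% of all genes rose and 7.6% fell. Against Rnaseh1 alone, 6 rose (Mos, Plk1, Cdk1, Ccnb2, Ccnb1 and Cdc25b) and 0 fell, where 41.6% of all genes rose and 17.4% fell. Rnaseh1 itself was also higher with Supt6 than in the Rnaseh1 group, by 1.28 ± 0.28 on the log2 scale (adjusted p = 0.00622). These groups thus differed in more than Supt6. The 3 comparisons of the rescue set share libraries in pairs, so each is given by its own values and none counts as support for another. The 4 calls against mCherry were all lost, to 0, when any of the mCherry or Rnaseh1 plus Supt6 libraries was left out, and the calls over all genes went from 1711 to between 85 and 320. The fold changes themselves moved little: over the libraries left out, Mos ran from -0.41 to -0.35, Plk1 from -0.84 to -0.74, Cdc25b from -0.74 to -0.60 and Ccnb2 from 0.61 to 0.68.

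**Figure D1:**
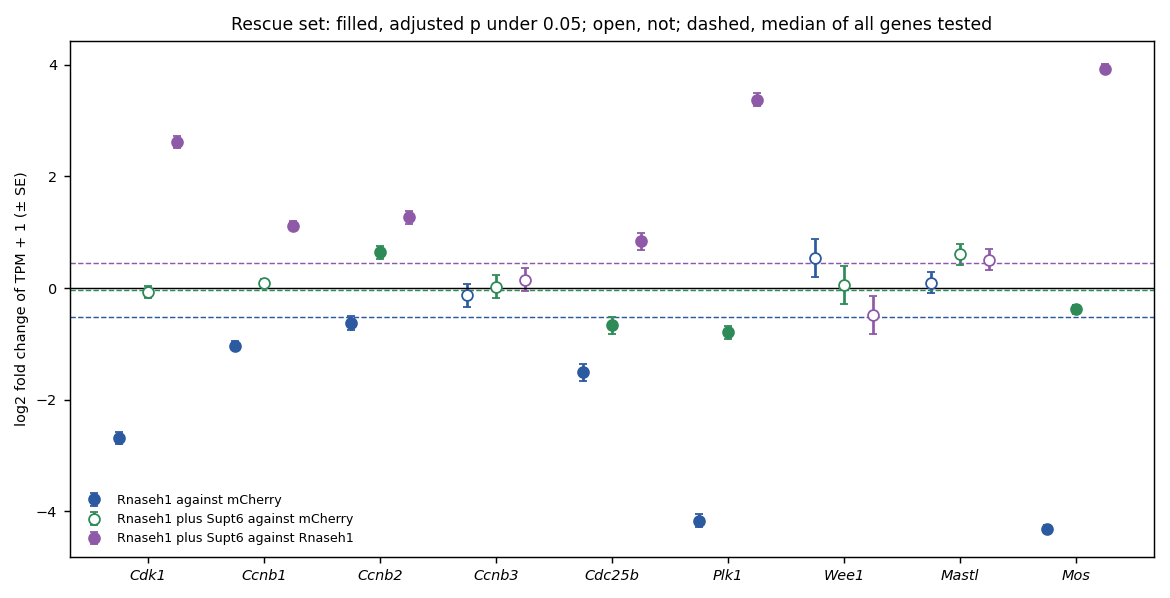
Log2 fold change of TPM + 1 (y axis, ± SE) for each of the 9 genes (x axis) in the 3 comparisons of the rescue set, n = 2 libraries a group; filled points passed an adjusted p of 0.05 and dashed lines are the medians of all genes tested. Mos (-4.31), Plk1 (-4.17) and Cdk1 (-2.68) lie far below the median of -0.52 for Rnaseh1 against mCherry, while Ccnb3, Wee1 and Mastl are open points there.

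CDK1 is the kinase whose activation drives entry into meiotic division. Cdk1 (ENSMUSG00000019942.13, chromosome 10, 69335146 to 69352938, minus strand, 8 exons; all positions are on GRCm38) was 220 and 229 TPM with mCherry, 32.7 and 35.7 TPM with Rnaseh1, and 201 and 229 TPM with Rnaseh1 and Supt6. Both Rnaseh1 libraries lay below all others of the set, and the mCherry and Rnaseh1 plus Supt6 libraries overlapped. The log2 fold change of Rnaseh1 against mCherry was -2.68 ± 0.10 (SE; adjusted p = 1.59e-06), and that of Rnaseh1 plus Supt6 against mCherry was -0.07, with a 95% interval from -0.31 to 0.18 (adjusted p = 0.758).

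Cyclin B1 is the main partner of CDK1 in the oocyte. Ccnb1 (ENSMUSG00000041431.16, chromosome 13, 100778650 to 100786570, minus strand, 9 exons) was 1364 and 1403 TPM with mCherry, 645 and 711 TPM with Rnaseh1, and 1408 and 1545 TPM with Rnaseh1 and Supt6. It was the most abundant of the 9 in every library. The log2 fold change was -1.03 ± 0.08 with Rnaseh1 (adjusted p = 2.96e-05) and 1.12 ± 0.08 when Supt6 was added to Rnaseh1 (adjusted p = 2.86e-05). Its transcript matches 5 pseudogenes at 94.4% to 99.2% identity over 383 to 1294 bases. These pseudogenes have no values in either table. How reads that match both were counted is not known, and the level of Ccnb1 is uncertain to that extent.

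Cyclin B2 can stand in for cyclin B1 in oocytes. Ccnb2 (ENSMUSG00000032218.7, chromosome 9, 70407692 to 70421547, minus strand, 9 exons) was 216 and 217 TPM with mCherry, 124 and 158 TPM with Rnaseh1, and 330 and 347 TPM with Rnaseh1 and Supt6. The 3 groups did not overlap, with Rnaseh1 lowest and Rnaseh1 plus Supt6 highest. Against mCherry, Ccnb2 fell by 0.63 ± 0.12 on the log2 scale with Rnaseh1 (adjusted p = 0.00275) and rose by 0.64 ± 0.12 with Rnaseh1 and Supt6 (adjusted p = 0.0181). The median of all genes in the first of these was -0.52, and after median centring Ccnb2 stood at -0.04 (adjusted p = 0.787).

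Cyclin B3, needed for the onset of anaphase in the first division, was far scarcer. Ccnb3 (ENSMUSG00000051592.14, chromosome X, 6979652 to 7041619, minus strand, 14 exons) was 10.7 and 14.7 TPM with mCherry, 12.4 and 10.5 TPM with Rnaseh1, and 13.1 and 12.46 TPM with Rnaseh1 and Supt6. The mCherry and Rnaseh1 libraries overlapped, and the log2 fold change was -0.13 with a 95% interval from -0.62 to 0.36 (adjusted p = 0.615). Under quantile normalization it turned to 0.64 (adjusted p = 0.022).

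CDC25B is the phosphatase that activates CDK1 at resumption in the mouse oocyte. Cdc25b (ENSMUSG00000027330.16, chromosome 2, 131186949 to 131198497, plus strand, 16 exons) was 34.2 and 33.7 TPM with mCherry, 12.2 and 10.4 TPM with Rnaseh1, and 20.0 and 22.1 TPM with Rnaseh1 and Supt6. The groups did not overlap, and the level with Supt6 lay between the others. The log2 fold changes were -1.51 ± 0.15 for Rnaseh1 against mCherry (adjusted p = 0.00011), -0.67 ± 0.15 for Rnaseh1 plus Supt6 against mCherry (adjusted p = 0.0332) and 0.84 ± 0.15 for Rnaseh1 plus Supt6 against Rnaseh1 (adjusted p = 0.0026). With the trend of fold change on transcript GC content removed, the first became -0.19 (adjusted p = 0.296), the second -0.38 (adjusted p = 0.145) and the third turned to -0.19 (adjusted p = 0.297). The third was also lost after median centring (0.33, adjusted p = 0.0924) and after quantile normalization (0.22, adjusted p = 0.22).

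PLK1 is the polo-like kinase that promotes CDK1 activation and later spindle assembly. Plk1 (ENSMUSG00000030867.7, chromosome 7, 122159439 to 122169873, plus strand, 10 exons) was 243 and 249 TPM with mCherry, 11.7 and 13.9 TPM with Rnaseh1, and 137 and 147 TPM with Rnaseh1 and Supt6. Again no groups overlapped. Its log2 fold change was -4.17 ± 0.12 with Rnaseh1 (adjusted p = 6.92e-07) and -0.79 ± 0.12 with Rnaseh1 and Supt6 (adjusted p = 0.00951), both against mCherry, and 3.38 ± 0.12 for Rnaseh1 plus Supt6 against Rnaseh1 (adjusted p = 2.14e-06). A processed pseudogene, Plk-ps1, matches its transcript at 93.5% identity over 1813 bases.

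WEE1 is the kinase that keeps CDK1 inactive, a role taken in the oocyte mostly by its relative WEE2. Wee1 (ENSMUSG00000031016.9, chromosome 7, 110122046 to 110143286, plus strand, 11 exons) was 3.15 and 3.52 TPM with mCherry, 7.87 and 3.51 TPM with Rnaseh1, and 3.60 and 3.44 TPM with Rnaseh1 and Supt6. Only replicate 1 of Rnaseh1 stood above the other libraries, and the log2 fold change of 0.55 did not pass (SE 0.34, adjusted p = 0.193). Without replicate 2 of that group it was 1.03 (adjusted p = 0.0091), and without replicate 1 it was 0.06. Wee1 also passed as higher once the values were rescaled: 1.13 after median centring (adjusted p = 0.0221), 1.26 after quantile normalization (adjusted p = 0.014) and 1.19 with the GC trend removed (adjusted p = 0.0207).

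MASTL, or Greatwall, protects the phosphorylations made by CDK1 from PP2A. Mastl (ENSMUSG00000026779.6, chromosome 2, 23115606 to 23156024, minus strand, 12 exons) was 91.0 and 116 TPM with mCherry, 92.6 and 131 TPM with Rnaseh1, and 149 and 167 TPM with Rnaseh1 and Supt6. The first 2 groups overlapped, with a log2 fold change of 0.10 and a 95% interval from -0.34 to 0.55 (adjusted p = 0.658). The libraries with Supt6 lay above the rest, by 0.61 ± 0.19 on the log2 scale over mCherry (adjusted p = 0.080) and 0.51 ± 0.19 over Rnaseh1 (adjusted p = 0.0509), and neither difference passed.

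MOS is a kinase made almost only in germ cells, translated from stored mRNA during maturation. Mos (ENSMUSG00000078365.5, chromosome 4, 3870657 to 3872105, minus strand, a gene of a single exon) was 896 and 863 TPM with mCherry, 45.1 and 41.5 TPM with Rnaseh1, and 678 and 672 TPM with Rnaseh1 and Supt6. The groups did not overlap, and the libraries of each group lay close together. The log2 fold change of Rnaseh1 against mCherry was -4.31 ± 0.08 (adjusted p = 4.27e-07) and that of Rnaseh1 plus Supt6 against Rnaseh1 was 3.93 ± 0.08 (adjusted p = 8.94e-07). Mos stayed lower with Supt6 than with mCherry by a log2 fold change of -0.38 ± 0.08 (adjusted p = 0.0244), which became -0.31 after median centring (adjusted p = 0.0618), -0.13 with the GC trend removed (adjusted p = 0.382) and -0.46 after quantile normalization (adjusted p = 0.0114).

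**Figure D2:**
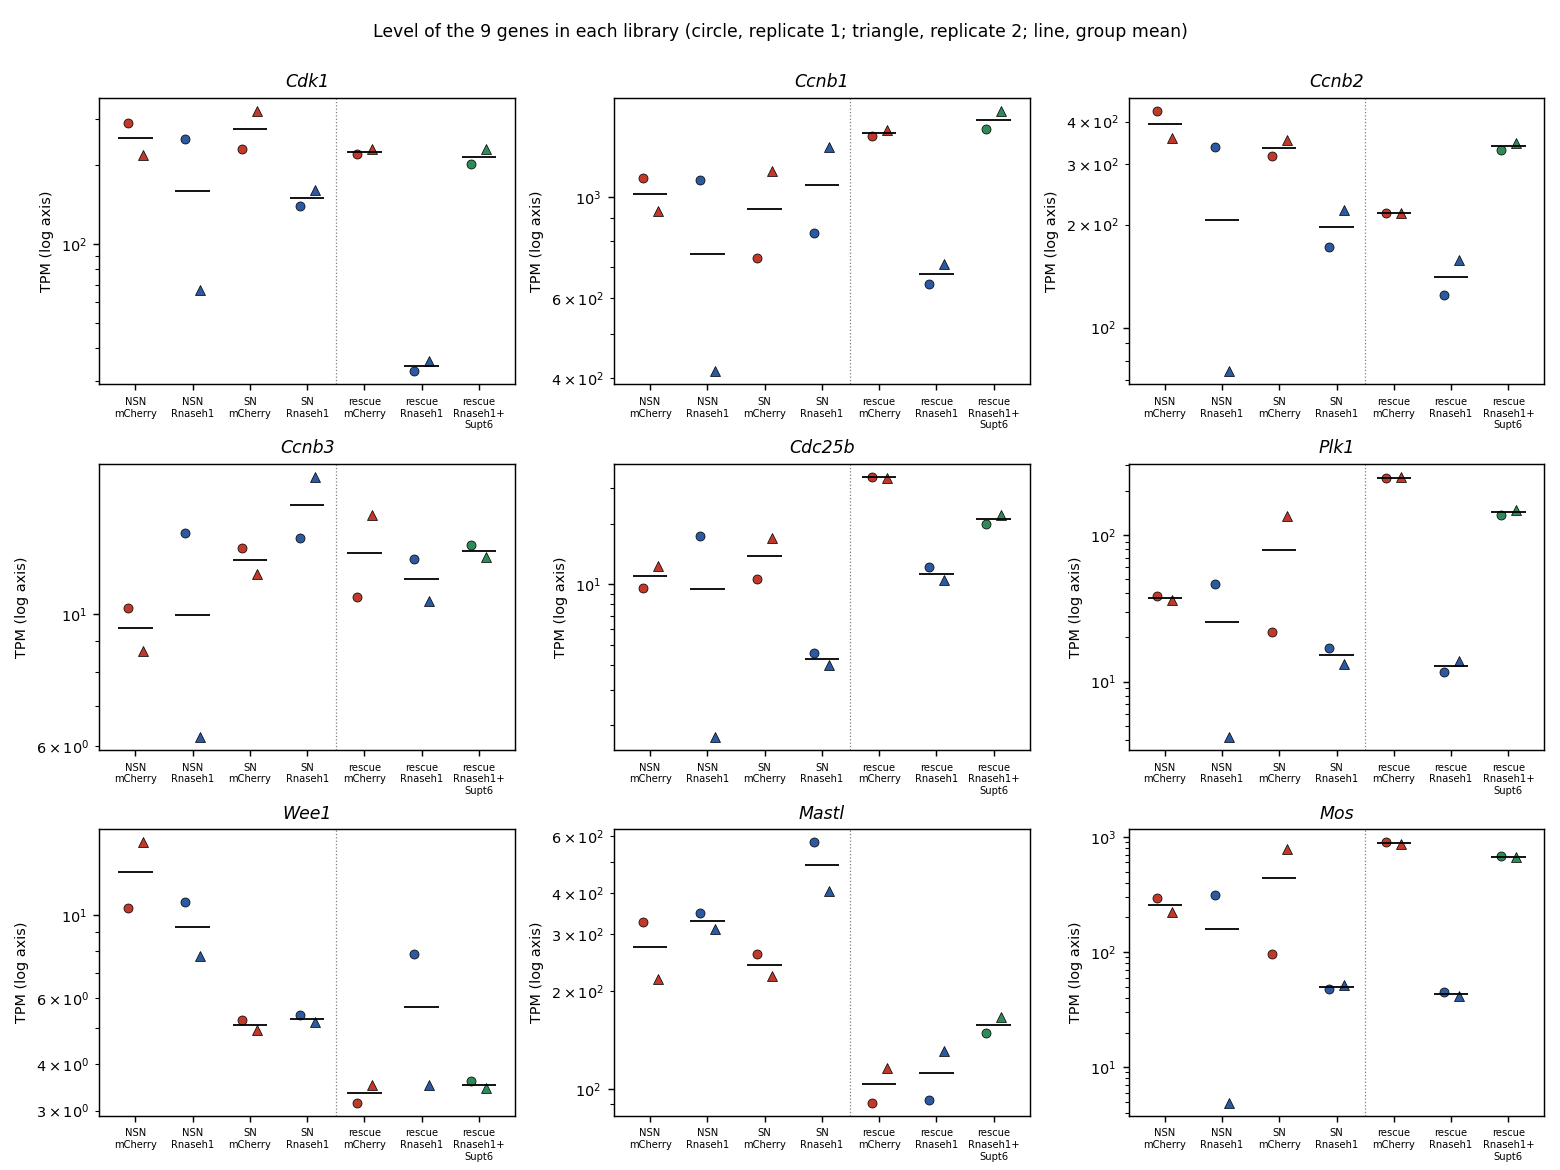
TPM of each of the 9 genes (y axis, log scale) in the 14 libraries, by group (x axis), with both replicates and the arithmetic mean of each group; the dotted line parts the NSN and SN table from the rescue set. In the rescue set Mos, Plk1 and Cdk1 are low in both Rnaseh1 libraries, and in the other table replicate 2 of NSN Rnaseh1 is the lowest library of 7 of the 9 genes, Wee1 and Mastl apart.

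How far these changes depend on scaling was examined because the median of all genes moved by -0.52 in the rescue set, and was 0.42 in the decile of genes with the lowest transcript GC content against -1.63 in the decile with the highest. GC content was 53.5% for Mos, 56.0% for Plk1 and 54.2% for Cdc25b, 47.8% for Cdk1, 49.3% for Ccnb2, 49.8% for Wee1, 44.2% for Ccnb1, 41.3% for Ccnb3 and 40.8% for Mastl. The median over the genes tested in the NSN and SN table was 48.5%. The 3 richest in GC thus lay among the 4 that fell most as deposited, and what GC content has to do with the changes was tested only by removing its trend. Of all genes called, 30.5% rose as deposited, 52.5% after median centring, 51.6% after quantile normalization and 49.3% with the GC trend removed.

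Cdk1, Ccnb1, Plk1 and Mos passed as lower with Rnaseh1 in the deposited values and in all 17 alternatives of that comparison. Across these, the log2 fold change of Mos ran from -4.37 to -3.09, that of Plk1 from -4.28 to -2.65, that of Cdk1 from -2.74 to -2.09 and that of Ccnb1 from -1.33 to -0.44. In each case the value nearest to 0 came with the GC trend removed (Mos and Plk1) or with median centring (Cdk1 and Ccnb1). Ccnb2 was lost under both of these settings and Cdc25b with the GC trend removed. Mastl passed as higher after median centring (0.69, adjusted p = 0.0138) and was -0.24 with the GC trend removed.

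The comparison of Rnaseh1 plus Supt6 with Rnaseh1 alone also depended on scaling. After median centring and after quantile normalization 5 of the 9 rose, Cdc25b being lost, and 1 fell, Wee1. Wee1 had log2 fold changes of -1.0 after median centring (adjusted p = 0.0396), -1.07 after quantile normalization (adjusted p = 0.0303) and -1.05 with the GC trend removed (adjusted p = 0.0369), against -0.48 as deposited and 0.003 without replicate 1 of Rnaseh1. With the GC trend removed, Mastl rose by 0.76 (adjusted p = 0.00953), giving 6 that rose and 1 that fell. Of all genes, 25.2% rose and 24.9% fell in that setting. Mos, Plk1, Cdk1, Ccnb1 and Ccnb2 passed as higher in all 17 alternatives. Against mCherry, Plk1 was -0.42 with the GC trend removed (adjusted p = 0.0755). Only Ccnb2 of the 9 passed there, as higher, where 7.21% of all genes rose and 3.96% fell.

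**Figure D3:**
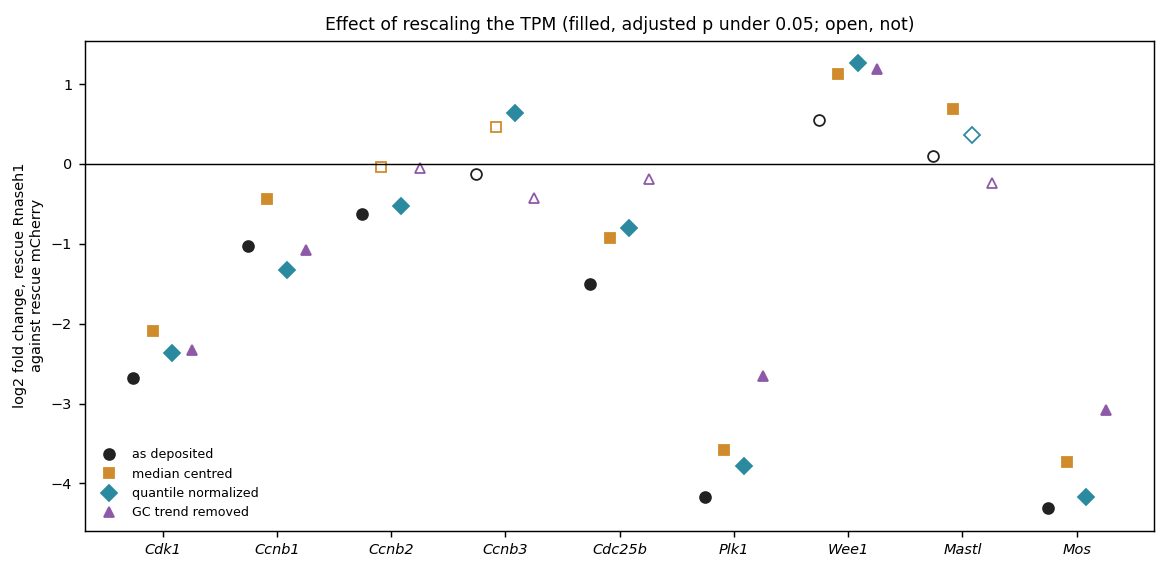
Log2 fold change of rescue Rnaseh1 against rescue mCherry (y axis) for the 9 genes (x axis) from the TPM as deposited and after 3 ways of rescaling; filled points passed an adjusted p of 0.05. Mos, Plk1, Cdk1 and Ccnb1 stay below 0 under all 4, Ccnb2 and Cdc25b move close to 0 with the GC trend removed (-0.06 and -0.19), and Wee1 is a filled point above 0 under each rescaling.

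Most oocyte markers differed between the same groups: 8 of the 10 were lower in both Rnaseh1 libraries of the rescue set than in both mCherry libraries. The share of all genes apart in this way was not counted in the rescue set, where 46.2% of all genes fell and 20.3% rose with limma. Zar1 (440 against 192 TPM, group means) and Figla (107 against 92.0 TPM) were higher. Bmp15, at 959 against 1177 TPM, differed less than Gdf9 and the zona pellucida genes Zp1, Zp2 and Zp3, which make up most of the sum, and Ooep was 428 TPM with Supt6 added, 462 TPM with Rnaseh1 and 606 TPM with mCherry. The summed TPM of the 10 was 14792 and 15916 with mCherry, 4525 and 4797 with Rnaseh1, and 15562 and 16428 with Rnaseh1 and Supt6. In the other table the sum was 4425 in replicate 2 and 11684 in replicate 1 of NSN Rnaseh1, 5527 in replicate 1 and 18054 in replicate 2 of SN mCherry, and between 4923 and 5058 in SN Rnaseh1. Their part in the results was not tested, and in these bulk libraries fewer cells of a kind and less RNA per cell cannot be told apart.

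In the NSN and SN table, 0 of the 9 genes and 0% of 12736 genes passed in any comparison with limma. SN Rnaseh1 against SN mCherry gave 0%, NSN Rnaseh1 against NSN mCherry 0%, both stages averaged 0%, SN against NSN with mCherry 0%, SN against NSN with Rnaseh1 0% and the interaction of stage and Rnaseh1 0%. At an unadjusted p under 0.05 there was 1 of the 9 in the SN comparison (Mastl), 1 averaged over stages (Mastl), 1 between SN and NSN with mCherry (Wee1), and 0 in the other 3. The share of all genes at that level was 6.74% in the SN comparison, 10.6% averaged over stages and 2.58% between the stages with mCherry, and 2.77% (NSN), 4.59% (stages with Rnaseh1) and 2.26% (interaction) in the others. The overexpressed Rnaseh1 itself did not pass with limma, at a log2 fold change of 3.55 ± 0.57 in SN oocytes (adjusted p = 0.407). In NSN oocytes it was 1.76 ± 0.57 (adjusted p = 0.755). The standard errors were wide, for Mos up to 1.70 on the log2 scale between pairs of groups and 2.41 in the interaction, so the values below are descriptions.

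Between SN Rnaseh1 and SN mCherry the libraries of 7 of the 9 genes did not overlap, against 50.7% of all genes. Mos was 48.0 and 51.3 TPM with Rnaseh1 and 96.9 and 782 TPM with mCherry, a log2 fold change of -2.45 with a 95% interval from -6.43 to 1.53 (adjusted p = 0.613). Plk1 was 17.02 and 13.2 against 21.9 and 135 TPM, Cdc25b 4.59 and 3.97 against 10.7 and 16.9 TPM, and Cdk1 139 and 160 against 229 and 321 TPM. For each of these and for Ccnb2 (172 and 221 against 316 and 353 TPM) both Rnaseh1 libraries were the lower ones.

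Mastl and Ccnb3 lay the other way in SN oocytes. Mastl was 573 and 407 TPM with Rnaseh1 and 261 and 222 TPM with mCherry, a log2 fold change of 1.0 ± 0.35 (unadjusted p = 0.023, adjusted p = 0.61). Ccnb3 was 13.4 and 17.01 against 12.9 and 11.7 TPM. Ccnb1 (832 and 1287 against 736 and 1142 TPM) and Wee1 (5.40 and 5.18 against 5.24 and 4.93 TPM) overlapped between the groups.

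Between NSN Rnaseh1 and NSN mCherry, the libraries of 1 of the 9 genes did not overlap, against 32.9% of all genes. This was Ccnb2, with 337 and 74.5 TPM against 430 and 357 TPM (log2 fold change -1.30 ± 0.64, adjusted p = 0.755). Mos was 313 and 4.91 TPM with Rnaseh1 and 293 and 224 TPM with mCherry. Cdk1 was 250 and 66.9 against 290 and 217 TPM, and Ccnb1 1087 and 414 against 1103 and 930 TPM. In each case replicate 1 lay near or within the mCherry values and replicate 2 far below them.

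The remaining genes in NSN oocytes followed or departed from that picture as follows. Plk1 was 46.5 and 4.20 TPM with Rnaseh1 against 38.3 and 35.7 TPM, and Cdc25b 17.3 and 1.75 against 9.62 and 12.3 TPM. Ccnb3 was 13.7 and 6.21 against 10.2 and 8.67 TPM. Wee1 was 10.9 and 7.77 against 10.5 and 15.7 TPM, and Mastl 347 and 311 against 327 and 218 TPM, 2 genes in which the Rnaseh1 replicates lay close together. The difference between stages in the Rnaseh1 effect, tested as an interaction, was largest for Ccnb1 (0.77 ± 0.73, adjusted p = 1).

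Between SN and NSN oocytes with mCherry, 3 of the 9 genes did not overlap, against 27.5% of all genes. Wee1 was lower in SN oocytes, with 5.24 and 4.93 TPM against 10.5 and 15.7 TPM (log2 fold change -1.18 ± 0.42, unadjusted p = 0.0231, adjusted p = 1). Ccnb2 lay lower and Ccnb3 higher in SN oocytes. With Rnaseh1, 2 of the 9 did not overlap between the stages, against 26.6% of all genes: Wee1 again lower in SN (5.40 and 5.18 against 10.9 and 7.77 TPM), and Mastl higher (573 and 407 against 347 and 311 TPM).

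The order of the group means within the NSN and SN table is mostly not resolved. For Mos it ran from SN mCherry (440 TPM) through NSN mCherry (258 TPM) and NSN Rnaseh1 (159 TPM) to SN Rnaseh1 (49.6 TPM), and every neighbouring pair overlapped. Cdk1, Cdc25b and Plk1 had the same order, Ccnb1 ran from SN Rnaseh1 (1060 TPM) to NSN Rnaseh1 (751 TPM), and all neighbours overlapped for these 4 too. Neighbours that did not overlap were NSN mCherry over SN mCherry for Ccnb2, SN Rnaseh1 over SN mCherry for Ccnb3, NSN Rnaseh1 over SN Rnaseh1 for Wee1, and SN Rnaseh1 over NSN Rnaseh1 for Mastl. In the rescue set all neighbours were apart for Mos, Plk1, Cdc25b, Ccnb1 and Ccnb2, none for Ccnb3 and Wee1. How many of all genes had their neighbours apart was not counted in that set.

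In 2 groups of the NSN and SN table the libraries of the group stood far apart. Replicate 2 of NSN Rnaseh1 lay below replicate 1 by a log2 difference of -5.73 for Mos, -3.19 for Plk1, -2.73 for Cdc25b, -2.16 for Ccnb2, -1.89 for Cdk1 and -1.39 for Ccnb1, against a median of -0.60 over all genes and -0.16 for Mastl. Replicate 2 of SN mCherry lay above replicate 1 by 3.0 for Mos and 2.56 for Plk1, against a median of 0.23, while Cdk1 (0.49), Ccnb2 (0.16) and Mastl (-0.23) differed little. In the remaining 5 groups, 2 of them in the same table, the largest such difference among the 9 genes was -0.98, that of Wee1 with rescue Rnaseh1.

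**Figure D4:**
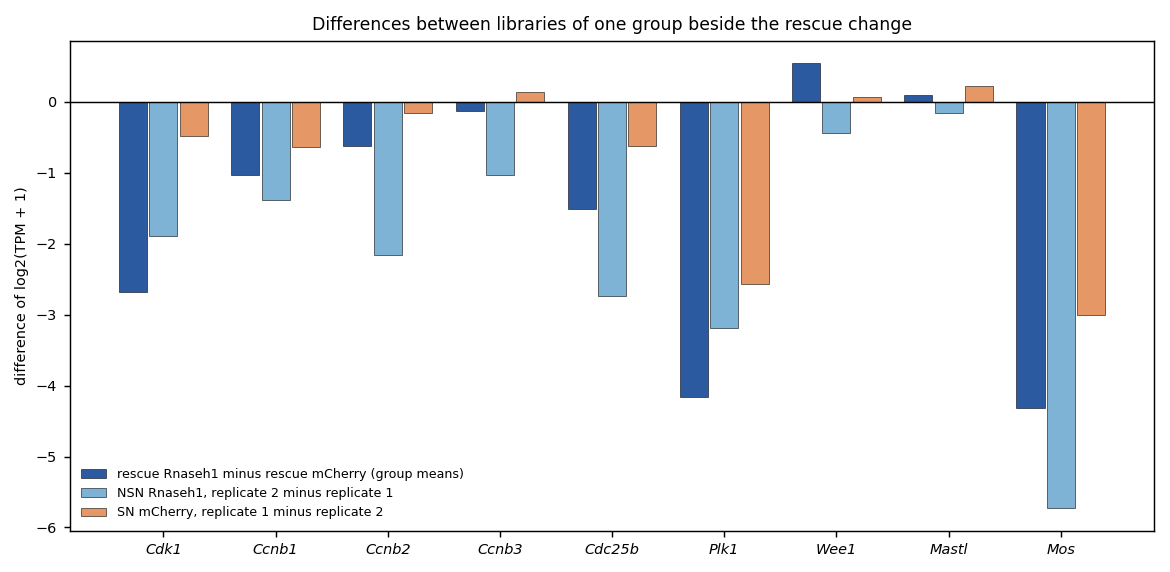
Differences of log2(TPM + 1) (y axis) for the 9 genes (x axis): the fitted rescue change of Rnaseh1 against mCherry, replicate 2 minus replicate 1 of NSN Rnaseh1, and replicate 1 minus replicate 2 of SN mCherry. Mos (-4.31, -5.73 and -3.0) and Plk1 (-4.17, -3.19 and -2.56) have long bars in all 3, and Mastl (0.10, -0.16 and 0.23) short ones.

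Leaving out 1 library changed the calls in NSN oocytes. Without replicate 1 of NSN Rnaseh1, 4 of the 9 genes fell in NSN oocytes (Mos, Cdk1, Ccnb2 and Cdc25b), against 8.44% of all genes, and 5 fell in the average over stages (those and Plk1), against 15.3%. Without replicate 2 of that group instead, 0 passed, and Mos in NSN oocytes had a log2 fold change of 0.29. The overexpressed Rnaseh1 itself was 745 TPM in replicate 1 and 229 TPM in replicate 2. In SN oocytes, Mos was -3.95 without replicate 1 of mCherry and -0.95 without replicate 2, and 0 of the 9 passed either way. With replicate 2 of both NSN Rnaseh1 and SN mCherry left out, 1 of the 9 fell from NSN to SN oocytes with Rnaseh1, against 2.3% of all genes: Mos, at -2.63 (adjusted p = 0.0452).

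Ratios taken within a library show how the genes stood to each other, without any test. In the rescue set the summed TPM of the 3 B-type cyclins was 7.23 and 7.13 times that of Cdk1 with mCherry, 23.9 and 24.6 times with Rnaseh1, and 8.72 and 8.31 times with Rnaseh1 and Supt6. In the NSN and SN table this ratio lay between 4.66 and 9.55 in all 8 libraries. Ccnb1 made up between 69.1% and 85.8% of the summed cyclin B TPM in the 14 libraries.

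For the activating phosphatase and the inhibiting kinase, and for Mos and Mastl, ratios were taken with 1 TPM added to each gene, which draws them toward 0 for low genes. The log2 ratio of Cdc25b to Wee1 was 3.08 and 2.94 with rescue mCherry, 0.57 and 1.34 with Rnaseh1, and 2.19 and 2.38 with Rnaseh1 and Supt6. It was 0.90 and 1.60 in SN mCherry and -0.20 and -0.31 in SN Rnaseh1, and -0.11 and -0.33 in NSN mCherry against 0.62 and -1.67 in NSN Rnaseh1. Wee1 itself did not pass in the rescue set, and Wee2, the main such kinase of the oocyte, fell there by 1.55 on the log2 scale, about as much as Cdc25b (-1.51). The log2 ratio of Mos to Mastl was 3.28 and 2.88 with rescue mCherry, -1.02 and -1.64 with Rnaseh1, and 2.18 and 2.0 with Rnaseh1 and Supt6.

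**Figure D5:**
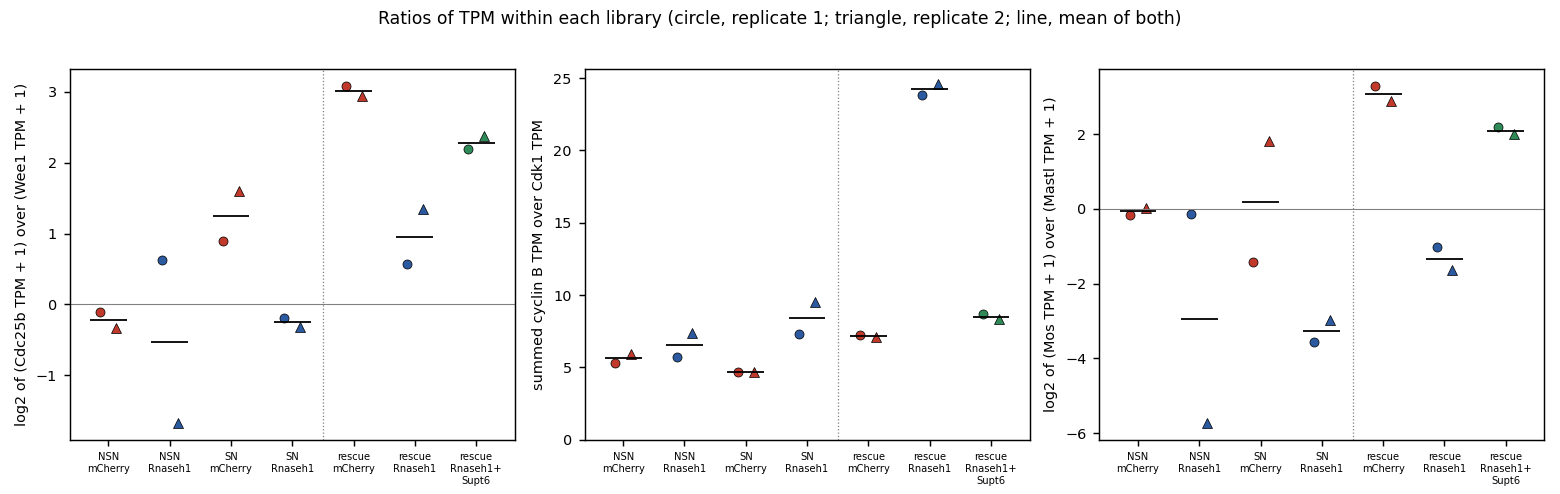
Ratios of TPM within each of the 14 libraries (points; line, mean of the replicates) by group (x axis): log2 of Cdc25b over Wee1 and of Mos over Mastl, each with 1 TPM added to both genes, and summed cyclin B over Cdk1. The cyclin B to Cdk1 ratio is 23.9 and 24.6 in the rescue Rnaseh1 libraries and at most 9.55 in all others.

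Other genes of the pathway were taken from 4 lists by role. Those named are the up to 3 genes a list with the smallest p for rescue Rnaseh1 against mCherry, so they need not be typical of their list. Of 14 further regulators and partners of CDK1 tested in the rescue set, 4 rose and 7 fell with Rnaseh1 against mCherry, with a median log2 fold change of -0.73 (-0.52 for all genes, of which 20.3% rose and 46.2% fell). Cks2, a small subunit that binds CDK1, rose by 2.87 ± 0.06 (9184 ± 320 TPM against 1256 ± 42 TPM, SD, n = 2). Wee2, the inhibitory kinase of the oocyte, fell by 1.55 ± 0.08 on the log2 scale, and Ccno, encoding a cyclin-like protein, fell by 1.99 ± 0.10. With Supt6 added to Rnaseh1, 8 of the 14 rose and 4 fell (median 0.64, 0.44 for all genes, of which 41.6% rose and 17.4% fell), and against mCherry 1 rose and 3 fell, where 5.71% and 7.6% of all genes did.

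On the branch from MOS to the MAP kinases, 4 of 7 listed genes were tested in the rescue set. With Rnaseh1, 3 fell and 0 rose (median -1.73, -0.52 for all genes), where 46.2% of all genes fell and 20.3% rose. Mapk3, the MAP kinase ERK1, was 24.6 ± 3.13 TPM with Rnaseh1 and 429 ± 68 TPM with mCherry (log2 fold change -4.07 ± 0.14, adjusted p = 1.11e-06). Its upstream kinases Map2k1 and Map2k2 fell by 1.43 ± 0.09 and 2.03 ± 0.19 on the log2 scale. Against Rnaseh1 alone, 3 of the 4 rose with Supt6, where 41.6% of all genes did, and Mapk3 rose by 3.32 ± 0.14.

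Among 11 partners of PLK1, Aurora A and Greatwall, 3 rose and 5 fell with Rnaseh1 (median -0.14, -0.52 for all genes), where 20.3% of all genes rose and 46.2% fell. Arpp19, the small protein through which MASTL inhibits PP2A, rose by 2.24 ± 0.08 on the log2 scale (999 ± 51 TPM against 211 ± 10.1 TPM). Ppp2r1a, the scaffold subunit of PP2A, fell by 2.90 ± 0.12, and Aurka, encoding the kinase that activates PLK1, fell by 2.58 ± 0.11. With Supt6 added to Rnaseh1, 5 rose and 3 fell (median 0.15, 0.44 for all genes), where 41.6% of all genes rose and 17.4% fell.

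Of 15 genes for polyadenylation and translation of stored mRNA, 2 rose and 9 fell with Rnaseh1 (median -0.80, -0.52 for all genes). Of all genes, 20.3% rose and 46.2% fell. Cpeb1, whose protein binds elements of the form shown above for Ccnb1, was 92.5 ± 14.6 TPM against 588 ± 38 TPM (log2 fold change -2.66 ± 0.12, adjusted p = 3.07e-06). Btg4, an adaptor for mRNA decay, fell by 0.95 ± 0.06, and Zar1, an RNA-binding protein of the oocyte that is also among the oocyte markers, rose by 1.19 ± 0.11. With Supt6 added to Rnaseh1, 9 rose and 2 fell (median 0.55, 0.44 for all genes), where 41.6% of all genes rose and 17.4% fell. Cpeb1 rose by 2.10 ± 0.12. In the NSN and SN table, 0 genes of the 4 lists passed in any comparison with limma. In SN oocytes, 1 of 14 CDK1 regulators, 0 of 4 MAP kinase genes, 0 of 12 PLK1 partners and 2 of 15 translation genes had an unadjusted p under 0.05, against 6.74% of all genes.

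The genes nearest to Mos were sought by the root mean square difference of log2(TPM + 1), centred in each table, over the 14 libraries and 11800 genes tested in both tables. They were Ppp1ca (0.24), Fkbpl (0.30) and Cdk5 (0.33). Ppp1ca, a catalytic subunit of the phosphatase PP1, was 5.37 ± 1.23 TPM with rescue Rnaseh1, 85.5 ± 8.22 TPM with mCherry and 86.3 ± 1.97 TPM with Rnaseh1 and Supt6 (SD, n = 2). Of the other 8 genes described here, Plk1 was nearest to Mos, at rank 95 with 0.66, then Cdk1 at rank 1030 with 1.16, and Mastl was farthest, with 2.12.

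The genes nearest to Ccnb1 were Cdc25a (0.15), a phosphatase of the same family as Cdc25b, Poli (0.18) and Tdrd12 (0.18). Cdc25a was 29.7 ± 0.16 TPM with rescue mCherry, 11.8 ± 0.16 TPM with Rnaseh1 and 27.3 ± 5.46 TPM with Rnaseh1 and Supt6. The other B-type cyclins stood at rank 1676 (Ccnb3, 0.40) and 1775 (Ccnb2, 0.40), and Mos at rank 11714.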

How the data were processed

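The authors deposited TPM per gene in 2 tables, with 8 and 6 libraries. RSEM 1.3.3, STAR 2.7.0d, Trim Galore 0.6.7, DESeq2 and mm10 are named without roles, per the submitters' processing notes; reverse transcription used SuperScript II and amplification KAPA HiFi polymerase, per the labels' protocols. Whether strand was used in counting is not given in the sources used here. Gene identifiers were paired with symbols, exons, transcripts and GC content from GENCODE M21 on GRCm38, the assembly mm10 names.

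Each table was fitted by itself with limma 3.58.1 in R 4.3.3 (lmFit, contrasts.fit, eBayes with a trend) on log2(TPM + 1), estimating 1 mean per group and 1 spread from all groups of the table. Genes with at least 1 TPM in at least 2 libraries were tested, and "rose" and "fell" mean a Benjamini-Hochberg adjusted p under 0.05 over all of them. The pseudocount of 1 understates the change of low genes. No level is compared between tables by a test, since they may have been normalized separately. The script recovered known changes in simulated data, at rates not given here, and the overexpressed Rnaseh1 did not pass in the NSN and SN table.

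The 9 genes, the 4 lists and the tests were chosen with earlier results of these data known. Up to 3 genes a list are named, those with the smallest p for rescue Rnaseh1 against mCherry, and the 3 genes nearest to Mos and to Ccnb1. Motifs were searched with Python 3.11.15, and transcripts compared with blastn 2.17.0+. The alternatives were other pseudocounts (0.1 and 5), other filters (none, or at least 5 TPM), median centring over genes with a mean of at least 10 TPM, quantile normalization, rescaling without Rnaseh1 and Supt6, removal of the GC trend by loess, robust eBayes, a replicate block, only the groups compared, and libraries left out.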

Additional observations from a re-analysis of the deposited data

How the results depend on the processing

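In the NSN and SN table, 0 of the 9 genes passed under the alternatives run, with 3 exceptions, each set by a library left out. With each library left out in turn, the count ran from 0 to 4 in NSN oocytes and from 0 to 5 averaged over stages, the upper values without replicate 1 of NSN Rnaseh1. With replicate 2 of NSN Rnaseh1 and of SN mCherry both left out, 1 gene passed between SN and NSN Rnaseh1, Mos at -2.63 (adjusted p = 0.0452), where it was 0.23 with all libraries; 2.3% of all genes fell in that setting. In the rescue set, the count of 4 for Rnaseh1 plus Supt6 against mCherry became 2 without a filter and 1 with the GC trend removed, and ran from 0 to 5 over libraries left out. Of all genes in that comparison, 1.96% rose and 2.45% fell without a filter, and 7.21% and 3.96% with the GC trend removed. Ccnb3 turned to 0.64 under quantile normalization (Rnaseh1 against mCherry), and Cdc25b to -0.19 with the GC trend removed (Rnaseh1 plus Supt6 against Rnaseh1). Why these values moved was not tested. With the replicate block, the counts were 6 (Rnaseh1 against mCherry), 5 and 7 (Rnaseh1 plus Supt6 against mCherry and against Rnaseh1) in the rescue set, Mastl being the gene added, and 0 in the other table. Of all genes with that block, 20.2% rose and 46.0% fell in the first of these comparisons. The shares were 5.7% and 6.61% in the second, and 41.2% and 17.4% in the third. Replicate numbers gave no sign of pairing: differences between replicates correlated across genes by -0.51 to 0.17 between groups of the NSN and SN table and by at most 0.04 in the rescue set. A fit of only the groups compared could not be run for the average over stages and the interaction. The share of calls that rose also moved for Rnaseh1 plus Supt6 against Rnaseh1 (70.5% as deposited, 46.6% after median centring) and against mCherry (42.9% as deposited, 53.2% after median centring, 64.6% with the GC trend removed). Standard errors of the 9 genes in the NSN and SN table reached 1.70 on the log2 scale between pairs of groups and 2.41 in the interaction. In the rescue set they reached 0.34, with 2 libraries a group in both. TPM keeps no read depth, so what depth limits is not known.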
